A study of Homo sapiens with 18 samples.

Results

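The 9 genes described here, PAX8, NKX2-1, FOXE1, HHEX, TG, TSHR, SLC5A5, DIO1 and DIO2, are those by which a thyroid follicular cell is recognised. They were taken by gene name from a table of 58302 genes, in which each name had a single row, and were followed in TPC1 cells and D11 cells. TPC1 is a human papillary thyroid carcinoma cell line, and D11 is a single Dicer1 (+/-) clone that was obtained from TPC1 with CRISPR-Cas9 and keeps 1 wild-type allele. Each line was left non-transfected (NT), received a control siRNA with no target (NC) or received an siRNA directed at Dicer1 (siDicer), both siRNAs at 5 nM, with RNA taken on day 4. Each of the 6 groups had 3 libraries, which makes 18. The control group of a line was its 6 libraries of NT and NC. Neither line is normal thyroid tissue, no such tissue is among the samples, and any difference between D11 and TPC1 rests on 1 clone.

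In the thyroid follicular cell the transcription factors PAX8, NKX2-1, FOXE1 and HHEX are expressed together and maintain one another and the differentiated state. With them the cell makes thyroglobulin (TG), the protein on which thyroid hormone is built, the receptor for thyrotropin (TSHR) and the sodium/iodide symporter (SLC5A5). The deiodinases DIO1 and DIO2 convert the prohormone thyroxine to the active hormone triiodothyronine. Dicer1 cuts miRNA precursors into mature miRNAs, which bind 3' untranslated regions through their seed, bases 2 to 8, and lower the target mRNA or its translation.

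Values are normalised reads, that is reads of a gene scaled to 20 M aligned reads in the library, with M for the SI prefix mega. Library depths ran from 11.3 to 23.2 M reads (median 15.9 M), so 1 read was worth 0.861 to 1.77 normalised reads and the floor of 3 reads lay between 2.58 and 5.32. These limits cover counting error only. For 12 of the 18 samples the title and the description disagree on the group, and the description was followed. DICER1 was lower in every siDicer library (246 to 395 in TPC1 and 277 to 451 in D11) than in any control library of its line (1397 to 2492 and 655 to 1536), as those descriptions require. It was higher in NC (1901 to 2492 in TPC1, 1407 to 1536 in D11) than in NT (1397 to 1582, 655 to 1157). These log2 differences, 0.58 ± 0.12 (SE) and 0.71 ± 0.18, had limma adjusted p = 0.133 and 0.153. D11 controls differed from TPC1 controls by -0.68 ± 0.12 (adjusted p = 0.00561). With NT or NC alone this was -0.75 and -0.62 (adjusted p = 0.406 and 0.107). The methods state in general terms that experiments were repeated independently, and neither they nor the labels say so of these libraries, so p-values measure the spread between these libraries, which may be technical.

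Of the 9 genes, PAX8, HHEX, FOXE1 and TG were measurable in all 18 libraries and passed the filter on low values (at least 10 in at least 3 libraries of a fit) in every comparison. DIO1 and DIO2 hovered around the floor, and NKX2-1, TSHR and SLC5A5 were at or under it throughout. Per kilobase (kb) of exon, PAX8 had a mean of 1341 ± 340 normalised reads over the 12 control libraries (SD), more than 97.3% of 19691 protein-coding genes. HHEX had 56.3 ± 9.62 per kb and FOXE1 32.9 ± 12.8 per kb. Their ranges over the control libraries overlapped, and HHEX was the higher in 10 of 12. TG had 6.24 ± 2.57 per kb, under FOXE1 in 12 of 12 control libraries. DIO1 had 0.621 ± 0.685 and DIO2 0.225 ± 0.218 per kb, with DIO1 the higher in 6 of 12, and these low genes have no order beyond their spread. The thyroglobulin mRNA, one of the most abundant of the thyroid gland, thus lay at a level that 37.4% of protein-coding genes fell below. In bulk RNA a smaller number of expressing cells and less RNA per cell cannot be told apart.

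**Figure D1:**
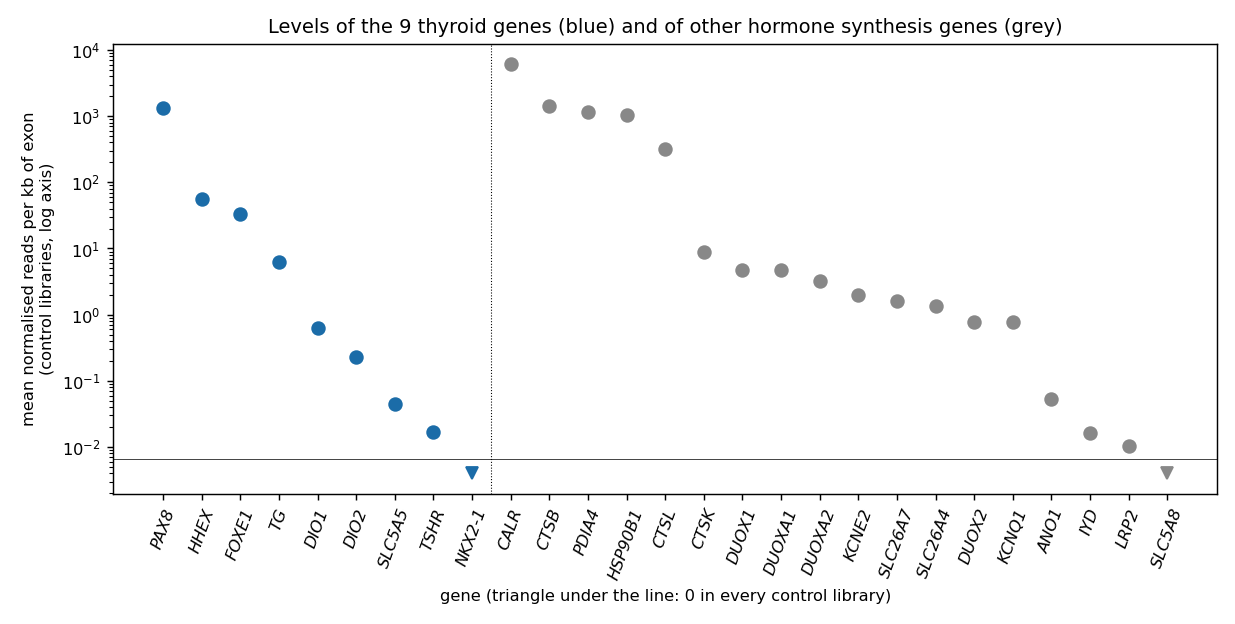
Mean normalised reads per kb of exon over the 12 control libraries, on a log axis, for the 9 thyroid differentiation genes (blue) and for other genes of hormone synthesis (grey), each set in falling order. PAX8, at 1341 per kb, stands apart from the other blue points, and NKX2-1 and SLC5A8 were 0 in every control library.

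PAX8, a paired-box factor that drives the genes of thyroglobulin and the symporter, lies on chromosome 2 (113215997 to 113278921, minus strand, GRCh38). The TPC1 libraries, listed by replicate number here and below, gave 9060, 14886 and 9891 normalised reads for NT, 7443, 13888 and 8691 for NC, then 8466, 14165 and 8282 for siDicer. The D11 libraries gave 7361, 11232 and 9758 for NT, 7523, 11128 and 7763 for NC, then 7690, 9996 and 9279 for siDicer. The 3 conditions of a line overlap, and what stands out is replicate 2, the highest library in 6 of 6 groups. Such a pattern was shown by 5.64% of the 12508 genes with a mean of at least 100. On the log2 scale, the replicate number accounted for 75.5% of the variance of PAX8 over the 18 libraries, the line for 8.56% and the condition for 3.74%. What a replicate number marks is not stated in the labels.

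PAX8 did not pass the test in any comparison. With siDicer it was at 96.8% of control in TPC1 (95% confidence interval 67.5% to 139%) and at 99.5% in D11 (79.1% to 125%), with limma adjusted p = 0.919 and 0.979. In D11, a block for replicate number narrowed the interval to 87.0% to 114% (limma adjusted p = 0.961). Between the lines, D11 control libraries were at 87.1% of TPC1 (67.9% to 112%, adjusted p = 0.700).

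PAX8-AS1, the RNA transcribed from the opposite strand, shares 1651 exonic bases with PAX8. No source says whether counting kept strands apart, so how reads over those bases were assigned is not known. PAX8-AS1 ranged from 1374 to 4079 normalised reads and was also highest in replicate 2 of 6 of 6 groups. Over the 18 libraries its log2 values had a Pearson r of 0.93 with those of PAX8. The genes most alike to PAX8 among the 12508 were CA12 (r = 0.97), a carbonic anhydrase of the cell surface, USP43 (0.95) and FBXO11 (0.94). These r values describe the 18 libraries, which share lines and replicate numbers, and the deviations from group means alone gave 0.99, 0.97 and 0.94.

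**Figure D2:**
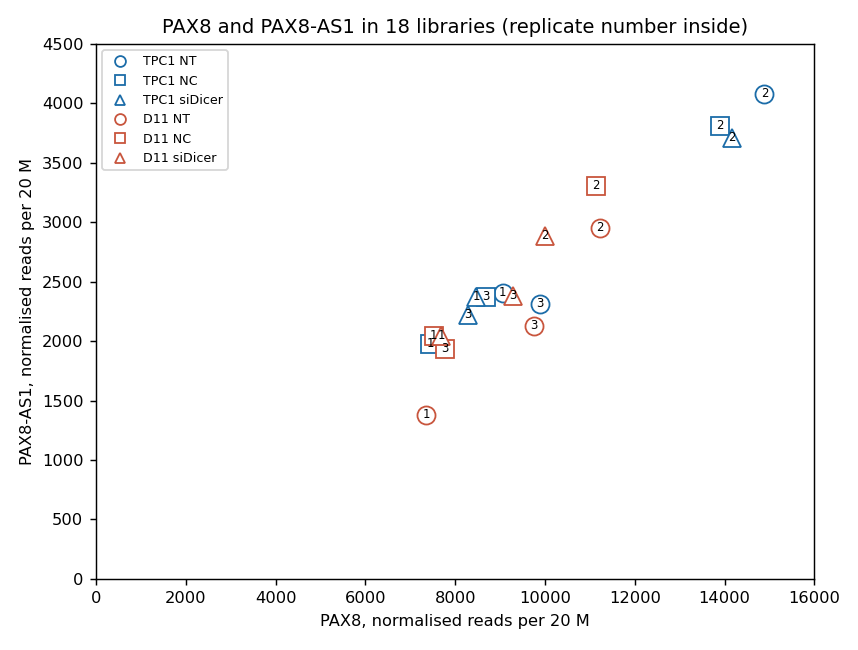
Normalised reads of PAX8 (horizontal axis) and of PAX8-AS1 (vertical axis) in each of the 18 libraries, with the line by colour, the condition by symbol and the replicate number inside. The 6 libraries numbered 2 lie at the upper right, from 9996 to 14886 for PAX8, and conditions are mixed within each number.

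NKX2-1, the homeobox factor shared by thyroid and lung (chromosome 14, 36516392 to 36521149, minus strand), was 0 in 18 of 18 libraries. No read among 288 M allows a level of up to 0.208 normalised reads over all libraries together. Its usual partner PAX8 thus stood at 7361 or more normalised reads in cells in which NKX2-1 was not detectable at this depth. The neighbouring and antisense genes NKX2-1-AS1 and SFTA3 were at or under the floor as well. Of 8 lung genes that NKX2-1 is known to drive, 6 were at or under the floor in all libraries. The other 2 were low: SCGB1A1, a secreted protein of airway club cells, ranged from 13 to 39, and ABCA3, a lipid transporter of alveolar cells, from 10 to 47. Neither passed the test.

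FOXE1, a forkhead factor needed for thyroid migration, is a single-exon gene on chromosome 9 (97853226 to 97856717, plus strand). TPC1 gave 86, 214 and 114 normalised reads for NT, 100, 151 and 174 for NC, then 119, 196 and 174 for siDicer. D11 gave 68, 98 and 86 for NT, 61, 118 and 109 for NC, then 71, 112 and 129 for siDicer. D11 libraries were on the whole lower than TPC1 libraries, though the control ranges overlapped (61 to 118 against 86 to 214). With siDicer the log2 change was 0.26 ± 0.28 (SE) in TPC1 and 0.20 ± 0.24 in D11, and neither passed (limma adjusted p = 0.576 and 0.590). D11 controls were at 66.1% of TPC1 controls (47.2% to 92.6%), a log2 difference of -0.60 ± 0.23 with adjusted p = 0.372. The genes most alike to FOXE1 over the 18 libraries were SEMA3A (r = 0.93), a guidance factor, FCGRT (0.92), the neonatal Fc receptor, and DAPK1 (0.92), a kinase of cell death, with 0.88, 0.90 and 0.86 on deviations from group means.

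HHEX, a homeobox factor of thyroid and liver development (chromosome 10, 92689955 to 92695647, plus strand), was the 1 gene of the 9 to pass the test, with siDicer in D11. Only 4 of the 9 were tested, and a gene that did not pass is not shown to be unchanged. D11 gave 168, 184 and 167 normalised reads for NT, 139, 158 and 114 for NC, then 88, 111 and 99 for siDicer. Every D11 siDicer library lay under every D11 control library, which held for 14.1% of all genes tested in D11. HHEX fell to 64.8% of control (50.5% to 83.1%), a log2 change of -0.63 ± 0.17 with limma adjusted p = 0.0176. TPC1 gave 133, 107 and 123 for NT, 137, 154 and 119 for NC, then 110, 122 and 86 for siDicer. These TPC1 groups overlapped, and the log2 change of -0.28 ± 0.16 did not pass (adjusted p = 0.248, 64.7% to 104% of control). The difference between the lines' responses, -0.34 ± 0.23, did not pass either (adjusted p = 1.00).

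The D11 controls of HHEX were themselves apart: NC was at 78.7% of NT (60.4% to 102%, adjusted p = 0.403), and against NC alone the log2 change with siDicer was -0.45 and no longer passed (adjusted p = 0.115), whereas against NT alone it was -0.80. With a replicate block the change against NC alone had limma adjusted p = 0.0271. At -0.45 it stayed under the fold needed and was not called. The call was also lost without NT replicate 2 (-0.57), without siDicer replicate 1 (-0.54) or 3 (-0.63, adjusted p = 0.0695), and without replicate 2 of every group (-0.63, adjusted p = 0.0768). The genes most alike to HHEX over the 18 libraries were TYMSOS (r = 0.90), the opposite-strand neighbour of thymidylate synthase, TOR4A (0.88) and H2AFX (0.87), the histone that marks DNA breaks. On deviations from group means these were 0.77, 0.87 and 0.56.

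**Figure D3:**
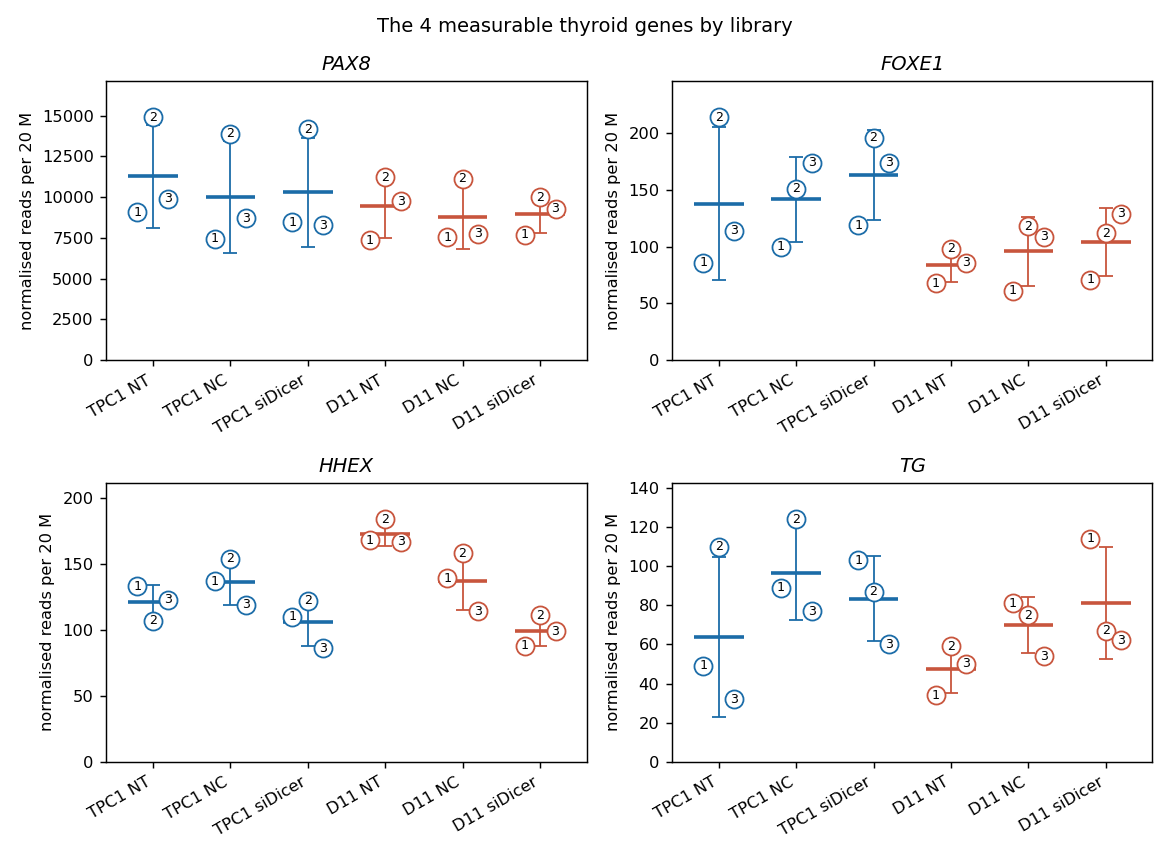
Normalised reads of PAX8, FOXE1, HHEX and TG in each library (circle with replicate number) by group, with the group mean (thick line) and SD (bar) of 3 libraries; axes start at 0. Replicate 2 is the highest circle in each PAX8 group, and the D11 siDicer libraries of HHEX (88 to 111) sit under all D11 controls (114 to 184).

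TG, which encodes thyroglobulin, lies on chromosome 8 (132866958 to 133134903, plus strand). TPC1 gave 49, 110 and 32 normalised reads for NT, 89, 124 and 77 for NC, then 103, 87 and 60 for siDicer. D11 gave 34, 59 and 50 for NT, 81, 75 and 54 for NC, then 114, 67 and 62 for siDicer. The groups overlapped in TPC1, and in D11 siDicer lay above NT but overlapped NC. With siDicer the log2 change was 0.16 ± 0.39 in TPC1 and 0.45 ± 0.28 in D11 (adjusted p = 0.823 and 0.262). NC was above NT by 0.75 ± 0.42 in TPC1 and 0.56 ± 0.27 in D11 (adjusted p = 0.565 and 0.395), so that against NC alone the TPC1 difference with siDicer turned to -0.22. None of these differences passed the test.

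TSHR, the thyrotropin receptor (chromosome 14, 80954989 to 81146306, plus strand), had a value of 2 in D11 NT replicate 3 and 0 in the other 17 libraries. SLC5A5, which carries iodide into the cell (chromosome 19, 17871945 to 17895174, plus strand), had a value of 2 in TPC1 NT replicate 3 and in D11 siDicer replicate 2, and 0 elsewhere. These are 1 and 2 reads out of 288 M, under the floor, and no condition brought either gene above it.

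DIO1 (chromosome 1, 53891239 to 53911086, plus strand) gave 3, 4 and 0 normalised reads for NT and 2, 0 and 0 for NC of TPC1. D11 gave 2, 0 and 0 for NT and 3, 0 and 3 for NC, and all 6 siDicer libraries were at 0. It reached the floor in 1 library, so the zeros with siDicer cannot be set against a measurable level. DIO2, the activating deiodinase (chromosome 14, 80197526 to 80387757, minus strand), gave 4, 3 and 0 for NT, 2, 0 and 2 for NC, then 12, 3 and 5 for siDicer of TPC1. D11 gave 3, 0 and 0 for NT, 4, 0 and 2 for NC, then 4, 0 and 3 for siDicer. The highest value, 12, came from the library with the greatest depth, 23.2 M reads. In TPC1 the mean was 6.67 ± 4.73 with siDicer (SD, n = 3) and 1.83 ± 1.60 in control (n = 6), with p = 0.0714 in an exact two-sided permutation test that cannot go below 0.0238. Adjusted over the 5 tests made on DIO1 and DIO2 this was 0.357, and the other 4 tests had adjusted p = 1.

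In TPC1, 0 of the 4 genes tested were called with siDicer, against 7.38% of 18475 genes tested (3.22% higher and 4.16% lower). A call needed an adjusted p under 0.05 in limma and a fold change of at least 1.5. At an unadjusted p under 0.05 there were 0 of the 4, against 5629 of 18475 genes. In D11, 1 of 4 was called against 12.0% of 18413 genes (5.26% higher and 6.75% lower), and 4 genes are too few to set that share against the background. NC against NT called 0 of 4 in each line, against 0.111% of genes in TPC1 and 0.350% in D11, and had 0 of 4 at an unadjusted p under 0.05, against 2003 of 18008 and 2447 of 17992 genes. In D11, where the replicate numbers pair the libraries, the calls of NC against NT went from 63 to 315 genes with a replicate block, still 0 of 4. D11 against TPC1 called 0 of 4 against 1.02% (0.872% lower in D11), with FOXE1 alone of the 4, and 1853 of 18814 genes, at an unadjusted p under 0.05. The interaction of line and siDicer called 0 of 4 against 0.00%, and 171 of 19181 genes, none of the 4 among them, had an unadjusted p under 0.05. The median log2 change of the 4 was 0.06 in TPC1 and 0.10 in D11, beside -0.04 over all genes in each line.

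**Figure D4:**
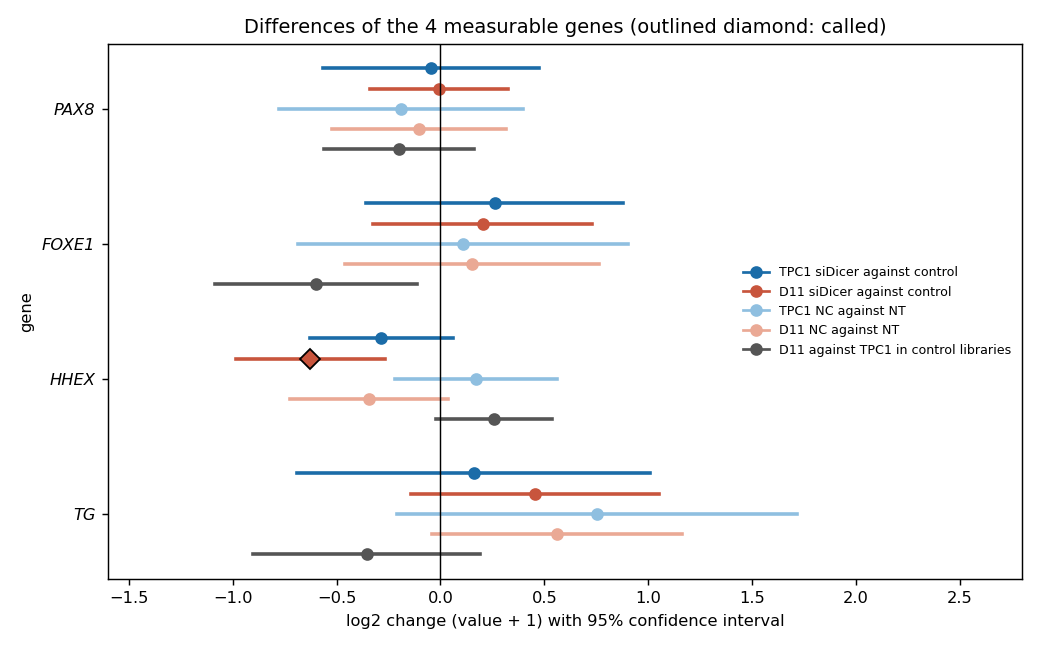
Log2 changes of the 4 measurable genes with 95% confidence intervals from limma, for siDicer against control and NC against NT in each line and for D11 against TPC1 controls. The outlined diamond marks the 1 called difference, HHEX in D11 at -0.63.

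As Dicer1 makes miRNAs, the 3' untranslated regions of these genes were searched for seed matches of 6 miRNAs (miR-146b-5p, miR-221-3p, miR-222-3p, miR-21-5p, let-7a-5p and miR-181a-5p). The miRNAs were chosen after the values were seen and were not measured here. A match is the 7 bases complementary to bases 2 to 8 on the transcript strand. Of the 9 genes, PAX8 had 1 match to the seed that miR-221-3p and miR-222-3p share (11.7% of untranslated regions of like length have one) and DIO2 had 1 to miR-146b-5p (32.1%). HHEX, FOXE1, TG, TSHR, SLC5A5, DIO1 and NKX2-1 had none. THRB, a receptor for triiodothyronine treated next, had 5, of which 1 was to miR-146b-5p (34.3%), 1 to miR-221-3p and miR-222-3p (24.0%), 2 to miR-21-5p (27.1%) and 1 to miR-181a-5p (51.9%). Of 3 other genes that are treated below, GLIS3 had 1 to miR-146b-5p (25.6%) and 1 to miR-181a-5p (42.9%), and EYA1 and SLC7A5 had 0. THRB and these 3 genes were all called higher with siDicer in at least 1 line. Outside the 9, no gene that fell was searched. The mature miRNAs from RefSeq are shown with the seed in capitals, and the sites, on GRCh38, with the matching bases in capitals:
hsa-miR-146b-5p: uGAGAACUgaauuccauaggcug
hsa-miR-221-3p: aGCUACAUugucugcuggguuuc
hsa-miR-222-3p: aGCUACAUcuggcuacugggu
PAX8 site, chr2:113218249-113218270, minus strand: attgaagaagaaATGTAGCccc
DIO2 site, chr14:80199818-80199839, minus strand: tataaaagtctgAGTTCTCttt
THRB site for miR-146b-5p, chr3:24118554-24118575, minus strand: tagagccaaattAGTTCTCcat
THRB site for miR-221-3p and miR-222-3p, chr3:24119366-24119387, minus strand: acagtttttgaaATGTAGCcag
A match is a description of the sequence and says nothing of binding.

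The stretch before the gene start also differs among the 9. RefSeq promoters of GRCh38.p14 were matched for 8 of them, and CG pairs on the gene strand were counted in the 250 bases before the start. HHEX had 38, FOXE1 26 and PAX8 11, against a median of 11 over 35116 promoters. SLC5A5 had 8, TSHR 7, DIO1 2 and DIO2 1 at the first of its listed starts, and NKX2-1, which was not detectable, had 18 at its first listed start. At least as many CG pairs as in HHEX were found in 3.3% of promoters, as in PAX8 in 50.3% and as in SLC5A5 in 56.3%. The windows of 2 expressed genes and of SLC5A5, which was under the floor, are shown with CG in capitals, and methylation was not measured:
PAX8, chr2:113278922-113279171, minus strand: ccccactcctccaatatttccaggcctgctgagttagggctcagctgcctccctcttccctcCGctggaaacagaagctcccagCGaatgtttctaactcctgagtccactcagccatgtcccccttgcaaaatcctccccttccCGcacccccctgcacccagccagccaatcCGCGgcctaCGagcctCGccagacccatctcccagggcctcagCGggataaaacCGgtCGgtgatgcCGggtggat
HHEX, chr10:92689705-92689954, plus strand: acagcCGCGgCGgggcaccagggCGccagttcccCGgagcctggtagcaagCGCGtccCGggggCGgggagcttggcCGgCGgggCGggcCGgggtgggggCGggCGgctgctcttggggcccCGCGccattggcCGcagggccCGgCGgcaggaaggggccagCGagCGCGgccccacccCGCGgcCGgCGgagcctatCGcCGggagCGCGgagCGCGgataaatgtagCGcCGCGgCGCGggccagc
SLC5A5, chr19:17871695-17871944, plus strand: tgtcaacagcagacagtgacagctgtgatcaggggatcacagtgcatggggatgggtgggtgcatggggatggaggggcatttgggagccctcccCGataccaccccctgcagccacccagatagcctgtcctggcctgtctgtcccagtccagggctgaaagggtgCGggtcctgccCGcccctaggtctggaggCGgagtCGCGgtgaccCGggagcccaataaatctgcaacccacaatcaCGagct

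Among 18 further genes of hormone synthesis, 4 were at or under the floor in all 18 libraries: IYD, SLC5A8, ANO1 and LRP2. DUOX1, an oxidase that makes hydrogen peroxide, ranged from 28 to 73, and its maturation factor DUOXA1 from 9 to 32. The chaperones CALR (15264 to 19246) and PDIA4 (2361 to 5185) and the protease CTSB (11350 to 20238), which serve all cells, were the highest of the list per kb. Of the 10 tested in TPC1 and the 9 tested in D11, 0 were called with siDicer, beside 7.38% and 12.0% of all genes tested. PDIA4 came nearest, with log2 changes of -0.51 ± 0.13 and -0.53 ± 0.09, under the fold needed.

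Of 17 genes that respond to or transport thyroid hormone, 13 were tested, and 3 rose and 0 fell with siDicer in each line. Of all genes tested, 3.22% were called higher and 4.16% lower in TPC1, and 5.26% and 6.75% in D11. The median log2 change of the 13 was 0.31 in TPC1 and 0.30 in D11, beside -0.04 over all genes in each line. For THRB, TPC1 gave 536, 397 and 348 normalised reads for NT, 669, 302 and 577 for NC, then 1658, 672 and 1669 for siDicer. D11 gave 500, 456 and 360 for NT, 526, 461 and 635 for NC, then 1398, 1431 and 1481 for siDicer. The siDicer libraries lay above all controls in each line, as did those of 7.62% of genes in TPC1 and of 2022 of 18413 genes in D11, though in TPC1 replicate 2 was at 672 against a control maximum of 669. The log2 change was 1.44 ± 0.32 in TPC1 (limma adjusted p = 0.0151) and 1.57 ± 0.15 in D11 (8.38e-05). THRA, the other receptor gene, had log2 changes of 0.07 ± 0.12 and -0.05 ± 0.15. In TPC1 the call of THRB was lost against NC alone (1.33, adjusted p = 0.0788) and without siDicer replicate 1 or 3 (1.22 in each case, adjusted p = 0.0920 and 0.0981).

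SLC7A5 and SLC3A2, the 2 chains of an amino acid and iodothyronine transporter, rose by log2 changes of 0.83 ± 0.25 and 0.78 ± 0.23 in TPC1 and of 0.78 ± 0.16 and 0.69 ± 0.16 in D11. In TPC1, SLC7A5 and SLC3A2 stood at adjusted p = 0.0471 and 0.0480. Their calls were lost with no filter on low values, against NT alone (0.73 and 0.70) or NC alone (0.94 and 0.85), and without any 1 library other than siDicer replicate 2, where the log2 changes ran from 0.60 to 0.89 for SLC7A5 and from 0.56 to 0.83 for SLC3A2. In D11, SLC3A2 lost its call without siDicer replicate 3 (0.56).

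**Figure D5:**
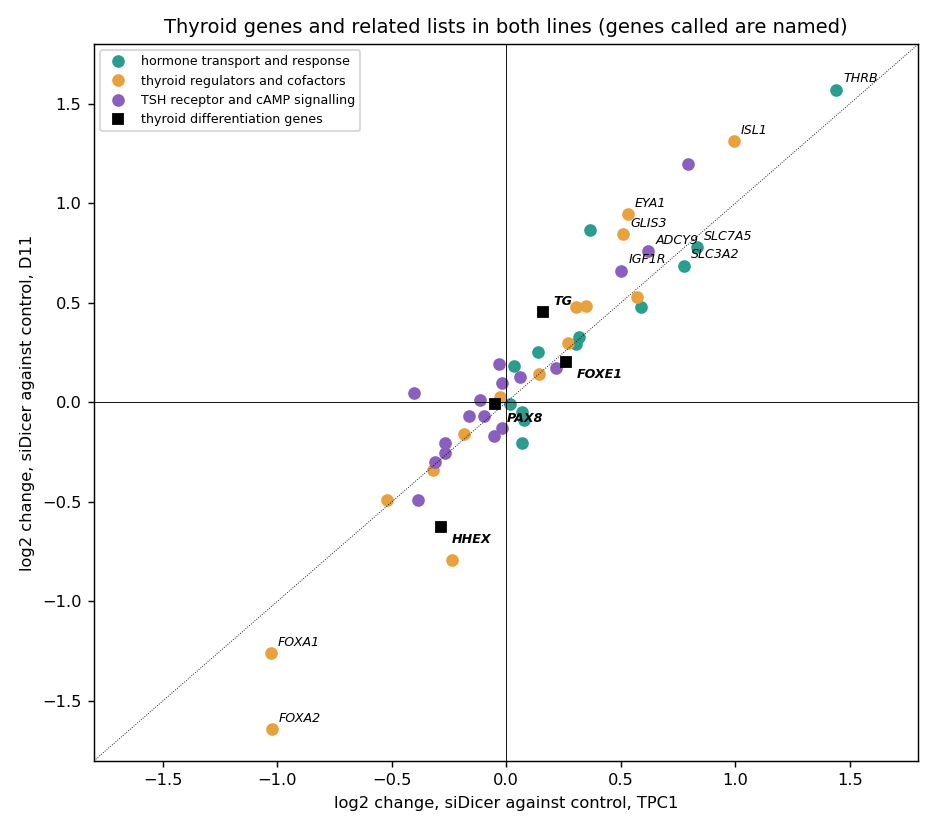
Log2 change with siDicer in TPC1 (horizontal axis) and in D11 (vertical axis) for genes of hormone transport and response, thyroid regulators, thyrotropin signalling and the 4 measurable thyroid differentiation genes (squares); the dotted line marks equal change. Genes called in at least 1 line are named, with THRB at the upper right, FOXA1 and FOXA2 at the lower left, and PAX8 and FOXE1 within 0.3 of 0 on both axes.

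All 17 genes listed for signalling downstream of or beside TSHR passed the filter and were tested. The highest per kb were GNAS (8367 to 13238 normalised reads), the stimulatory G protein, PRKAR1A (3584 to 5051), a regulatory subunit of protein kinase A, and GNA11 (1732 to 2309). None was called with siDicer in TPC1 (median log2 change -0.05), beside 7.38% of all genes tested. In D11, where 5.26% of all genes tested were called higher, 2 rose (median 0.01). These were ADCY9, an adenylyl cyclase, with 0.76 ± 0.16 and limma adjusted p = 0.00572, and IGF1R, a receptor that signals beside TSHR, with 0.66 ± 0.18 and 0.0189. In TPC1 they had 0.62 ± 0.21 and 0.50 ± 0.20. Against NC alone both D11 changes were under the fold needed (0.56 and 0.39), as was that of IGF1R without NT replicate 1 (0.56). Without siDicer replicate 1 or 3 the adjusted p of IGF1R was 0.0511 and 0.102, with log2 changes of 0.70 and 0.58. Both calls were also lost without replicate 2 of every group (0.75 and 0.74).

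Among 16 other regulators and cofactors of thyroid development, 15 were tested. In TPC1 1 fell and none rose (median log2 change 0.14), and in D11 3 rose and 2 fell (median 0.14). Of all genes tested, 3.22% were called higher and 4.16% lower in TPC1, and 5.26% and 6.75% in D11. FOXA1 and FOXA2, endoderm factors related to FOXE1, went down: FOXA1 by log2 changes of -1.03 ± 0.21 in TPC1 and -1.26 ± 0.18 in D11, and FOXA2 by -1.64 ± 0.44 in D11, with -1.02 ± 0.35 in TPC1 not passing. FOXA1 had 48, 44 and 54 normalised reads with siDicer in TPC1 against 63 to 126 in control, with no overlap, which held in this direction for 9.91% of genes. In D11 it had 36, 45 and 28 against 81 to 103. FOXA2 was low, with 8, 2 and 3 normalised reads in D11 siDicer libraries against 9 to 28 in D11 control. Replicates 2 and 3 of D11 siDicer were under the floor for FOXA2, so the size of its fall rests on few reads. Over the alternatives run, the FOXA2 change in D11 ranged from -2.10 to -0.78. ISL1, a homeobox gene, rose in D11 (1.31 ± 0.27), as did EYA1 (0.95 ± 0.26), a transcriptional coactivator. GLIS3, a zinc finger factor of thyroid hormone production, lies outside the naming rule and was added after its values were seen, to complete the 5 called in D11. It rose by 0.85 ± 0.15. The call of FOXA1 in TPC1 was lost without siDicer replicate 1 (-1.02, adjusted p = 0.0575) and against NT alone (-0.88). In D11, without single siDicer libraries, EYA1 (0.89 to 1.00, replicates 1, 2 or 3) and FOXA2 (-1.31 and -1.51, replicates 2 or 3) lost theirs, as they did without replicate 2 of every group. The coactivator of PAX8 known as TAZ (WWTR1), the highest of the list per kb, had log2 changes of -0.52 ± 0.12 and -0.49 ± 0.10, under the fold needed.

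D11 and TPC1 controls differed in EYA1 alone among these regulators. It had 190 to 233 normalised reads in TPC1 control libraries and 51 to 128 in D11, with no overlap, which held in that direction for 0.951% of all genes tested. The log2 difference was -1.40 ± 0.20 (limma adjusted p = 0.00139). With NT or NC libraries alone it was -1.31 and -1.50 and did not pass (adjusted p = 0.124 and 0.129).

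Most close relatives of the 9 genes were not detectable. Of 12 paralogs, 7 were at or under the floor in all libraries, among them the NKX2 genes NKX2-2, NKX2-3 and NKX2-4 and the gonadotropin receptors LHCGR and FSHR. Of the 5 tested, none was called with siDicer in TPC1, beside 7.38% of all genes tested. In D11, where 6.75% of all genes tested were called lower, 1 fell, NKX2-5, a homeobox gene of the heart. It had 67, 71 and 65 normalised reads with siDicer against 95 to 162 in control (log2 change -0.75 ± 0.19, limma adjusted p = 0.0124, and 0.0617 without siDicer replicate 3, at -0.73). The PAX8 relatives PAX2 (105 to 179) and PAX5 (34 to 177) and the transporters SLC5A6 (1041 to 1693) and SLC5A3 (312 to 849) were expressed and not called. Of 10 antisense and neighbouring genes 4 were tested, including PAX8-AS1, and 0 were called.

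Of 12 other genes of the follicular cell, 7 were tested and 1 rose, SORBS2, an adaptor of the actin cytoskeleton, with 1.35 ± 0.30 in TPC1 and 1.32 ± 0.25 in D11. In TPC1 its call was lost without siDicer replicate 1 (1.07) or 3 (1.17) and against NT (1.49) or NC (1.20) alone. HGD, an enzyme of tyrosine breakdown and the highest per kb, had log2 changes of -0.66 ± 0.26 and -0.53 ± 0.13 and was not called. TFF3, MT1G, PKHD1L1 and EPB41L3 were at or under the floor.

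The highest markers of papillary carcinoma per kb were FN1 (fibronectin) at 76834 to 220774 normalised reads, TIMP1 at 2646 to 4403 and MET at 6513 to 12439. Of the 16, 11 were tested in TPC1 and 12 in D11, and 1 and 3 rose, beside 3.22% and 5.26% of all genes tested. HMGA2, a chromatin protein that let-7 represses, rose by 0.84 ± 0.14 and 0.96 ± 0.19, and DPP4, a surface peptidase, by 0.78 ± 0.17 in D11 (0.48 and under the fold needed against NC alone). DPP4 was also called higher in NC than in NT of D11 (0.60 ± 0.10, limma adjusted p = 0.0480). FN1 rose by 0.60 ± 0.18 in D11, which was lost without NT replicate 1 (0.47) or 3 (0.60), NC replicate 3 (0.57) or any siDicer library (0.60 each), with no filter on low values (adjusted p = 0.0711), and against NT alone (0.66, adjusted p = 0.0538) or NC alone (0.54, under the fold needed). CLDN1, a tight junction protein, was lower in D11 than in TPC1 controls by a log2 difference of -1.05 ± 0.19, which did not pass with NT libraries alone (-1.21, adjusted p = 0.431).

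Of the epithelial and mesenchymal markers, the keratins KRT8 and KRT18 and the mesenchymal VIM (vimentin) were high (VIM 22635 to 36113 normalised reads), while the epithelial EPCAM and CDH1 did not exceed 8 in any library. KRT7 rose with siDicer in TPC1 (0.82 ± 0.20), and CDH2, the mesenchymal N-cadherin, in both lines (0.71 ± 0.17 and 0.74 ± 0.13). Both TPC1 calls were lost without siDicer replicate 1 (0.72 and 0.62) or 3 (0.71 and 0.63) and against NC alone (0.67 and 0.50, adjusted p = 0.0740 and 0.0915). In D11 the CDH2 change against NC alone was 0.54, under the fold needed. Among markers of other cells of the neck, all 3 parathyroid genes were 0 in 18 libraries. The summed C cell markers reached 8 to 21 in control and 24 to 35 in siDicer libraries, with CALCA, which encodes calcitonin, at 0, and SCG2 rose in D11 (1.10 ± 0.29, lost without any 1 siDicer library at 1.08 to 1.11 and against NC alone at 0.95). Summed fibroblast markers reached 170 to 236 in TPC1 control, 358 to 631 in TPC1 siDicer, 40 to 94 in D11 control and 91 to 142 in D11 siDicer libraries, with DCN at 0. LUM made up most of the TPC1 sum and rose there (1.86 ± 0.23). D11 controls had 0 to 2 normalised reads of LUM, under the floor, against 89 to 157 in TPC1 controls. That log2 difference was -6.02 ± 0.36 (limma adjusted p = 6.97e-07). Over the alternatives run it ranged from -7.93 to -3.48, so its size is uncertain. Summed endothelial markers reached 27 to 87 in control and 88 to 185 in siDicer libraries, mostly TIE1, which rose in both lines (1.57 ± 0.38 and 1.38 ± 0.36). Its calls were lost without TPC1 siDicer replicate 1 (1.68), 2 (1.25) or 3 (1.79) and without D11 siDicer replicate 2 (1.28) or 3 (1.33), and against NC alone in both lines (1.28 and 0.88, adjusted p = 0.0812 and 0.0636). Of the 5 immune markers, 4 were at or under the floor, among them PTPRC and CD3E, and CD68, a lysosomal protein of macrophages and other cells, made up nearly all of the sum of 765 to 1962. The part of these genes in the changes of HHEX or THRB was not tested.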

How the data were processed

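Stranded, poly-A selected mRNA libraries of TPC1 and D11 were sequenced. Per the methods of the study, reads were aligned to GRCh38 with STAR 2.5.3a, counted per gene of Ensembl release 90 with HTSeq 0.9.1 and scaled to 20 M aligned reads. The authors deposited 1 table (58302 genes, 18 columns) of a normalised score, made by scaling the reads and rounding them up to whole numbers, with column totals of 20010707 to 20018484. The step between values gave the worth of 1 read and the depth, 11.3 to 23.2 M reads, and recovered reads entered only the floor, a comparison of replicates and an alternative test. Whether counting used strand is not given in the sources used here. Replicates of a group differed by more than sampling noise (mean chi-square per gene of 5.59 to 57.5 over 18 pairs).

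Groups came from the sample descriptions. Values were taken as log2(value + 1), which understates changes of low genes, for genes of at least 10 in at least 3 libraries of a fit, and tested with limma 3.58.1 (lmFit, eBayes with trend) in R 4.3.3, with Benjamini-Hochberg adjustment over all genes of a comparison. The study's methods name a count model for its comparisons, which was not used because the table holds scaled values. A call required a fold change of 1.5 or more together with an adjusted p below 0.05. Comparisons were siDicer against NT and NC in each line, NC against NT within each line, the 12 controls of D11 and TPC1 against each other with a term for transfection, and, over 18 libraries, the interaction between line and siDicer. Genes under the filter but above 3 reads in a library were tested with an exact permutation test. The script was tested on counts simulated for siDicer against control in D11, with a spread between libraries that was set rather than fitted. Calls recovered 21 of 67 changes of 1.5-fold, 65 of 67 of 2-fold and 66 of 66 of 4-fold. These changes were placed in genes with a mean of at least 100, and 12 unchanged genes were called. A change near 1.5-fold can thus be missed, and a gene that was not called is not shown to be unchanged.

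The 9 genes and the lists were chosen with earlier results of these data known. Some genes of the lists are not reported here and were left out of the lists' counts and medians. From each list were named the genes called in a siDicer comparison or between the lines, at most 4 by size of change, and the 3 highest per kb of exon; for genes of the 9 with a mean of at least 100 the 3 most alike genes were named. Exon lengths and positions come from GENCODE release 44, matched by identifier for 57532 of the 58302 genes. The alternatives tried were scaling by TMM or RLE, other filters (none, or a mean of 100 or more), other pseudocounts (0.1 and 10), calls without the fold change limit, either control alone, a block for replicate number, 1 fit to all 18 libraries, voom on recovered reads, and the loss of each library in turn. Leaving out replicate 2 of every group, the block with NT or NC alone, and the alternatives for DIO1 and DIO2 were chosen after seeing the data.

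To see whether replicate numbers pair the libraries, deviations from group means were correlated between libraries of the same number. In D11 all 9 such correlations were over 0.1 (0.106 to 0.473), so the numbers pair those libraries, though the tests printed are without a block unless it is named. In TPC1 7 of 9 were over 0.1 (0.0861 to 0.509) and between the lines 22 of 27 (-0.00761 to 0.432). Between libraries of different numbers 3 of 18 were in D11, 3 of 18 in TPC1 and 4 of 54 between the lines. As not all same-number correlations in TPC1 and between the lines were over 0.1, those libraries were not taken as paired. Libraries of the same number were still more alike there than libraries of different numbers.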

Additional observations from a re-analysis of the deposited data

How the results depend on the processing

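Of the 9 genes, HHEX in D11 was the 1 called, and the number called in D11 with siDicer went from 1 to 0 with a pseudocount of 10, with NC alone (with or without the replicate block), and without replicate 2 of every group. Leaving out 1 library, it ranged from 0 to 1. With the replicate block the number called between D11 and TPC1 controls went from 0 to 1: FOXE1 had a log2 difference of -0.60 ± 0.13 with limma adjusted p = 0.0173. The block changed no other call of the 9 genes, and the HHEX change in D11 kept its call with it (adjusted p = 0.0142). Over all genes, the block moved the calls of siDicer from 1363 to 1796 in TPC1 and from 2212 to 2443 in D11, of NC against NT from 20 to 565 in TPC1 and from 63 to 315 in D11, and of D11 against TPC1 from 191 to 385. In the other 4 comparisons the number of the 9 genes called stayed at 0 in every alternative run.

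Small differences changed sign without passing any test. For PAX8 with siDicer, TMM scaling gave 0.018 in TPC1 and 0.033 in D11, RLE scaling 0.034 in D11, NC alone 0.048 in TPC1 and 0.045 in D11, with or without the block, and the loss of replicate 2 of every group 0.070 in D11. Its interaction was -0.0035 with NC alone, with or without the block. HHEX between the lines was -0.0013 with NC alone, and TG in TPC1 was -0.22 with NC alone, with or without the block. Leaving out 1 library gave ranges of -0.30 to 0.088 for PAX8 with siDicer in TPC1, -0.088 to 0.10 in D11, -0.45 to 0.028 and -0.28 to 0.031 for PAX8 in NC against NT of TPC1 and D11, and -0.095 to 0.29 for its interaction. For FOXE1 the ranges were -0.18 to 0.47 and -0.026 to 0.44 in NC against NT and -0.27 to 0.19 for the interaction, and for TG -0.073 to 0.38 with siDicer in TPC1. For the difference of mean values between D11 and TPC1 controls they were -0.50 to 0.33 for DIO1 and -0.83 to 0.10 for DIO2. The cause was not tested in any of these cases. Depth limits NKX2-1, TSHR, SLC5A5, DIO1 and DIO2 to statements at or near the floor. The comparisons of a line share its NT and NC libraries.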
